A study of Mus musculus with 278 samples.

Results

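The cells described here are basal-marked epithelial cells of the pregnant mouse mammary gland, split by how much of their RNA came from milk protein genes. Of 278 single cells in the series, 123 carried a pregnancy label, and 96 of these had at least 50000 reads in kept genes. Basal marking required at least 50 CPM (reads scaled to a common library total) for 6 or more of Krt14, Krt5, Krt17, Acta2, Myh11, Mylk, Cnn1, Tagln, Myl9 and Tpm2. In all, 64 cells met this rule, and 54 of them reached 50 CPM for 9 or 10 of the markers. The milk share of a cell was the percentage of its reads in the caseins (Csn1s1, Csn1s2a, Csn1s2b, Csn2, Csn3), the whey protein genes Wap and Lalba, and Glycam1, after removal of mitochondrial and ribosomal genes. A share of 5% or more defined 27 milk-rich cells, a share under 1% defined 28 milk-poor cells, and 9 cells lay between. Both groups were thus chosen by measured values, the milk share and the basal markers.

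All cells came from FVB/NJ mice with no treatment named. Every pregnancy cell was labelled as total epithelium, and according to the study such cells were taken at mid-pregnancy. The cells were captured on the Fluidigm C1 system, which is built to isolate each cell in a chamber and make its cDNA there. The study viewed the capture sites to check for single cells. Each library is labelled as 1 cell, and whether any held RNA of more than 1 cell was not tested here. The labels tie no cell to an animal, so cells are not replicates of a condition, and the differences below stand without a test or a check between replicates. The other 112 basal and 43 luminal cells of the series came from adult mice. Intervals are exact, at the 95% level, and cover counting error only.

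Basal cells form the outer layer of mammary ducts and alveoli, make keratins of stratified epithelia and smooth muscle proteins, and contract in response to oxytocin to eject milk. Alveolar luminal cells make the milk itself. During pregnancy, prolactin acts through its receptor, the kinase Jak2 and the transcription factor Stat5, which enters the nucleus and binds sites in the promoters of casein genes. The contractile genes of smooth muscle are in turn bound by serum response factor at a sequence known as the CArG box.

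The promoters below, of 3 milk genes and a contractile gene, hold letters that match the motifs of these factors. They are the 250 bases before the annotated start in RefSeq, build GRCm38.p6, and the capitals mark the palindromic STAT motif TTCNNNGAA in the casein and Glycam1 promoters and the CArG box in Myl9. Both motifs read alike on either strand and do not overlap each other here.
Csn2, chr5:87699426-87699675, minus strand: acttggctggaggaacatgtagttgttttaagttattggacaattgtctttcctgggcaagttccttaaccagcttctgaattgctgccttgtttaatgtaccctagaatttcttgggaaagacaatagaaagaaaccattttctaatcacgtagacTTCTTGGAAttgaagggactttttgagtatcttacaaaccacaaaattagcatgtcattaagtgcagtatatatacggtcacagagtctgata
Csn1s1, chr5:87665958-87666207, plus strand: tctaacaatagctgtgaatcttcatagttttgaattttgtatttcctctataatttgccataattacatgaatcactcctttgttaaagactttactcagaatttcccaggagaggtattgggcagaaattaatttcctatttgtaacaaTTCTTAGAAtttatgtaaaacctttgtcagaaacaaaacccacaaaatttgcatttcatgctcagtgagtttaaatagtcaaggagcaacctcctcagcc
Glycam1, chr15:103565082-103565331, minus strand: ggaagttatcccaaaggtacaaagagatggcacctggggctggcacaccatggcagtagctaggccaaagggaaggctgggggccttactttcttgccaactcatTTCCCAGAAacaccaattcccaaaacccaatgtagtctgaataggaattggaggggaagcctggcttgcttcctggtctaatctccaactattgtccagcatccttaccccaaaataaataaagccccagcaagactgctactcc
Myl9, chr2:156775214-156775463, plus strand: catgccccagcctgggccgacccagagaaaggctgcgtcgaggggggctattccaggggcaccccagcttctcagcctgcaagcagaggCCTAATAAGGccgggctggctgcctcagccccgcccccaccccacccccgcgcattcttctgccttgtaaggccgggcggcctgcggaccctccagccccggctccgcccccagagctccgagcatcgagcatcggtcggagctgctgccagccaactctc
The STAT motif began 93 bases before the start of Csn2, 100 bases before that of Csn1s1 and 145 bases before that of Glycam1. It was present in 3 of the 6 milk genes with a promoter in the table, against 8.13% of all 27025 genes there. The CArG box of Myl9 began 161 bases before the start. That motif was found in 1 of 7 basal markers with a promoter, in 2 of 18 further contractile genes and in 1.62% of all genes. Over the genes compared below, the STAT motif was in 7.93% of those higher in milk-rich cells, 7.12% of those lower and 7.22% of all tested. A match describes these letters in this window and nothing about binding.

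Milk shares spread over several orders of magnitude among the basal-marked cells. They ran from 7.49% to 64.1% with a median of 22.1% in milk-rich cells, and from 0.00108% to 0.955% with a median of 0.137% in milk-poor cells. These values chose the groups and are given as a description. Just inside and outside the thresholds, cell 66 had a share of 0.955%, cell 93 had 1.17%, cell 84 had 4.78% and cell 42 had 7.49%. The milk-rich cells made up 42.2% of the basal-marked cells (27 of 64, Clopper-Pearson interval 29.9 to 55.2%). Among 81 adult basal cells that passed the same read and marker minimums, the highest share was 0.0168%, and milk genes took 0.000692% of the summed reads, against 0.256% in milk-poor and 33.6% in milk-rich cells.

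**Figure D1:**
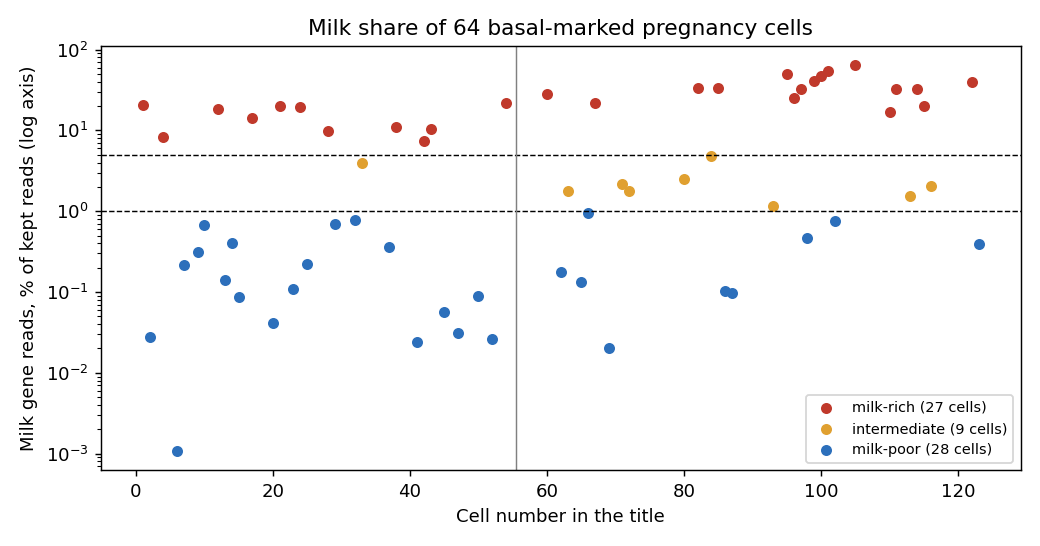
Each point is a basal-marked pregnancy cell, with its title number on the horizontal axis and its milk share in percent on a log vertical axis. Dashed lines mark 1% and 5%, and the grey line divides titles 1 to 55 from 56 to 123. Milk-rich and milk-poor cells occur on both sides of that line.

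The cell titles fall into a lower and a higher range whose cells differ, a division known from earlier results of these data. The labels name no capture, day or animal for it. Titles 1 to 55 held 11 milk-rich, 1 intermediate and 19 milk-poor cells, and titles 56 to 123 held 16, 8 and 9. The milk share of summed milk-rich reads was 15.7% in the lower range and 40.3% in the higher range. Each comparison below was therefore also made within either range.

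Depth and quality moved with the groups. Reads outside the milk genes had a median of 245319 in milk-rich cells (61604 to 427036) and 136294 in milk-poor cells (57252 to 423908). After each cell was thinned to 20000 such reads, a median of 3164 genes was detected in milk-rich cells (2082 to 4396) and 2604 in milk-poor cells (1867 to 3717). Mitochondrial genes took a median of 9.65% of all reads in milk-rich and 11.7% in milk-poor cells, with 2 and 9 cells above 20%. Markers of other cell types were also uneven. Of the milk-poor cells, 8 detected 3 or more markers of an endothelial, immune, fibroblast or pericyte list, all of them in titles 1 to 55 (cells 7, 13, 29, 32, 41, 47, 50 and 52). Of the milk-rich cells, 3 did so, all for the endothelial list (cells 4, 42 and 111). The part of these differences in the results was not tested. Counts without such cells are given below for some lists, and those of most other lists also changed. Of 15 further contractile genes, 12 were then lower in place of 9, and of 6 mature luminal genes, 1 was higher and 5 lower. Nuclear oxidative phosphorylation had 1 gene higher in place of 3, and cell cycle genes had 3 higher and 3 lower.

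Among the milk genes, all but Csn1s2b and Lalba had reads in every milk-rich cell. Csn2, the beta-casein gene, ranged from 20158 to 122458 CPM in milk-rich cells with a median of 71954 CPM, and from 0 to 4609 CPM in milk-poor cells with a median of 314 CPM. Reads of Csn2 were present in 27 of the 28 milk-poor cells. Wap, the whey acidic protein gene that is activated late in alveolar differentiation, ranged from 19.6 to 22084 CPM in milk-rich cells and had reads in 8 milk-poor cells. Csn1s2b had reads in 12 milk-rich and 2 milk-poor cells.

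Per kilobase of transcript, Csn1s2a and Csn2 gave the most milk gene reads in both groups. Csn1s2a, a calcium-sensitive casein, gave 45.0% of length-scaled milk reads in milk-rich and 39.6% in milk-poor cells. Csn2 gave 21.0% and 22.9%, and Csn1s1 gave 13.2% and 12.9%. Glycam1, a secreted mucin-like protein, gave 8.53% in milk-rich and 13.3% in milk-poor cells, while Wap gave 3.59% and 1.49%. These pooled shares differed between title ranges and from the shares in single cells. In titles 1 to 55, Csn1s2a and Csn2 gave 34.5% and 33.6% in milk-rich and 29.0% and 29.8% in milk-poor cells, and in titles 56 to 123 they gave 46.5% and 19.1% in milk-rich and 50.1% and 16.1% in milk-poor cells. Glycam1 gave 11.8% in milk-rich and 12.7% in milk-poor cells of titles 1 to 55. In titles 56 to 123, Glycam1 gave 8.06% in milk-rich and 14.0% in milk-poor cells. Without length scaling, its share in the median cell was 5.76% in milk-rich and 4.22% in milk-poor cells, the opposite order to the pooled share. In the 23 pregnancy cells with under 6 basal markers and a milk share of 5% or more, the corresponding shares were 39.7% for Csn1s2a, 25.6% for Csn2 and 3.17% for Wap.

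The basal markers used by the rule were present in milk-rich cells at a lower level than in milk-poor cells. Having chosen the cells, they are given as a description. Acta2, smooth muscle actin, had 4028 CPM in the summed milk-rich cells (398 to 13122, median 4053) and 10842 CPM in milk-poor cells (2778 to 33033, median 8765). Pregnancy cells with under 6 markers and 5% milk or more had 7.39 CPM. The ranges of both basal-marked groups overlapped. Krt14, the basal keratin, had 746 CPM in milk-rich cells (66.0 to 2605, median 596), 2056 CPM in milk-poor cells (65.4 to 8907, median 1643) and 205 CPM in those other cells. Cnn1, the actin-binding calponin, had the lowest ratio of the 10 (213 against 934 CPM, log2 ratio -2.13), and Krt17 the highest (417 against 805 CPM, log2 ratio -0.95). Within the 27 milk-rich cells, the Spearman coefficient of milk share with summed marker CPM was -0.33, and it was -0.73 in titles 1 to 55 (n = 11 cells) and -0.68 in titles 56 to 123 (n = 16 cells). For contractile genes outside the rule the coefficients were -0.35, -0.50 and -0.26. All come from the same libraries and, for the markers, from quantities that chose the cells, and are a description.

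Outside the milk genes, counts were summed over each group and expressed as CPM over reads without milk genes, and a gene was tested if it reached 20 CPM in the higher group. Here called means a ratio of 2-fold or more. Of 7497 genes, 1459 were called higher in milk-rich cells (19.5%) and 2000 lower (26.7%), and the median log2 ratio over all of them was -0.17. At 4-fold or more, the numbers were 688 (9.18%) and 907 (12.1%). Within titles 56 to 123, 30.2% were called higher and 31.6% lower, and within titles 1 to 55, 24.9% and 26.5%. Many calls rested on 1 cell. Without the cell holding most of each gene's reads in the higher group, 853 of 5963 genes were called higher and 828 lower. With milk reads left in the totals, 699 genes were called higher (10.0%) and 3152 lower (45.2%). With equal weight for each cell, 20.2% were called higher and 26.4% lower.

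The 10 genes with the highest ratios were Muc15, Lao1, Slc28a3, Ltf, Cel, Ceacam10, Gjb2, Cidea, Folr1 and Btn1a1, most of them known from the alveolar secretory cell. Muc15 (chr2:110721494-110739537), a membrane mucin of the milk fat globule, had 1589 CPM in milk-rich cells, with 258 to 4154 CPM per cell and a median of 1163 CPM. Milk-poor cells held 1 read of it in all, so the log2 ratio of 12.79 has a counting interval of 10.32 to 18.10. Every milk-rich cell lay above every milk-poor cell. That held for only 2 of 7497 genes in this direction (0.0267%), Muc15 and Wfdc18, and for none in the other. Wfdc18, a small secreted protease-inhibitor-like protein, ranged from 6669 to 55021 CPM in milk-rich cells (median 20661) and from 0 to 1715 CPM in milk-poor cells (median 134).

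Ltf encodes the antimicrobial milk protein lactoferrin. It had 2792 CPM in milk-rich cells (0 to 8996, median 1126) and 4.03 CPM in milk-poor cells (0 to 93.9, median 0), a log2 ratio of 9.44 (8.78 to 10.19). Btn1a1, butyrophilin, which is needed for secretion of milk fat, had 929 CPM in milk-rich cells (39.2 to 3531, median 742) and 3.13 CPM in milk-poor cells (0 to 71.9, median 0). The per-cell ranges of both genes overlapped, since a few milk-rich cells had little or none. Cel, bile salt-stimulated lipase of milk, had a log2 ratio of 8.89, and Folr1, a folate receptor, 8.57. Slc28a3, a nucleoside transporter, had 561 CPM against 3 reads over all milk-poor cells (log2 ratio 9.71, 8.16 to 11.98). Cidea, a lipid droplet protein, and Ceacam10 had no read in any milk-poor cell, so against a floor of 3 reads over the group they were at least 394-fold and 458-fold higher. The rule that named them required the same direction in titles 56 to 123. All 10 were higher in titles 1 to 55 too. Cells of that range are part of the ratios that ranked the genes, so this is a description.

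Some tested genes outside the same limits had lower ratios than most genes named here, such as Id4 at -3.97. Within the limits, the 10 genes with the lowest ratios were Abl1, Col18a1, Matn2, Igfbp2, Dll1, Fbln2, Dcn, Fgfr1, Htra1 and Fmo2. Several of the 10 encode extracellular matrix proteins or signalling components. Col18a1, a basement membrane collagen, had 18.4 CPM in milk-rich cells (0 to 126, median 0) and 188 CPM in milk-poor cells (0 to 1160, median 56.7), a log2 ratio of -3.35 (-3.64 to -3.07). Matn2, a matrix adaptor, had 42.9 and 414 CPM (log2 ratio -3.27). The groups overlapped for all of these genes, which have cells without reads on either side. For Fmo2, a flavin monooxygenase, cell 99 held 74.6% of the milk-rich reads. Fgfr1, a fibroblast growth factor receptor, had 33.3 CPM in milk-rich cells (0 to 147, median 25.0) and 239 CPM in milk-poor cells (0 to 1896, median 145). Igfbp2, which binds insulin-like growth factors, had 24.0 and 197 CPM (log2 ratio -3.04). Dcn, the proteoglycan decorin, belongs to the fibroblast list used here, and had 209 and 1518 CPM with reads in 25 of 28 thinned milk-poor cells. Without the cells with 3 or more markers of another cell type, the log2 ratio of Dcn was -2.32 against -2.86 with them, and the ratios of the other 9 ran from -4.23 to -2.48.

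**Figure D2:**
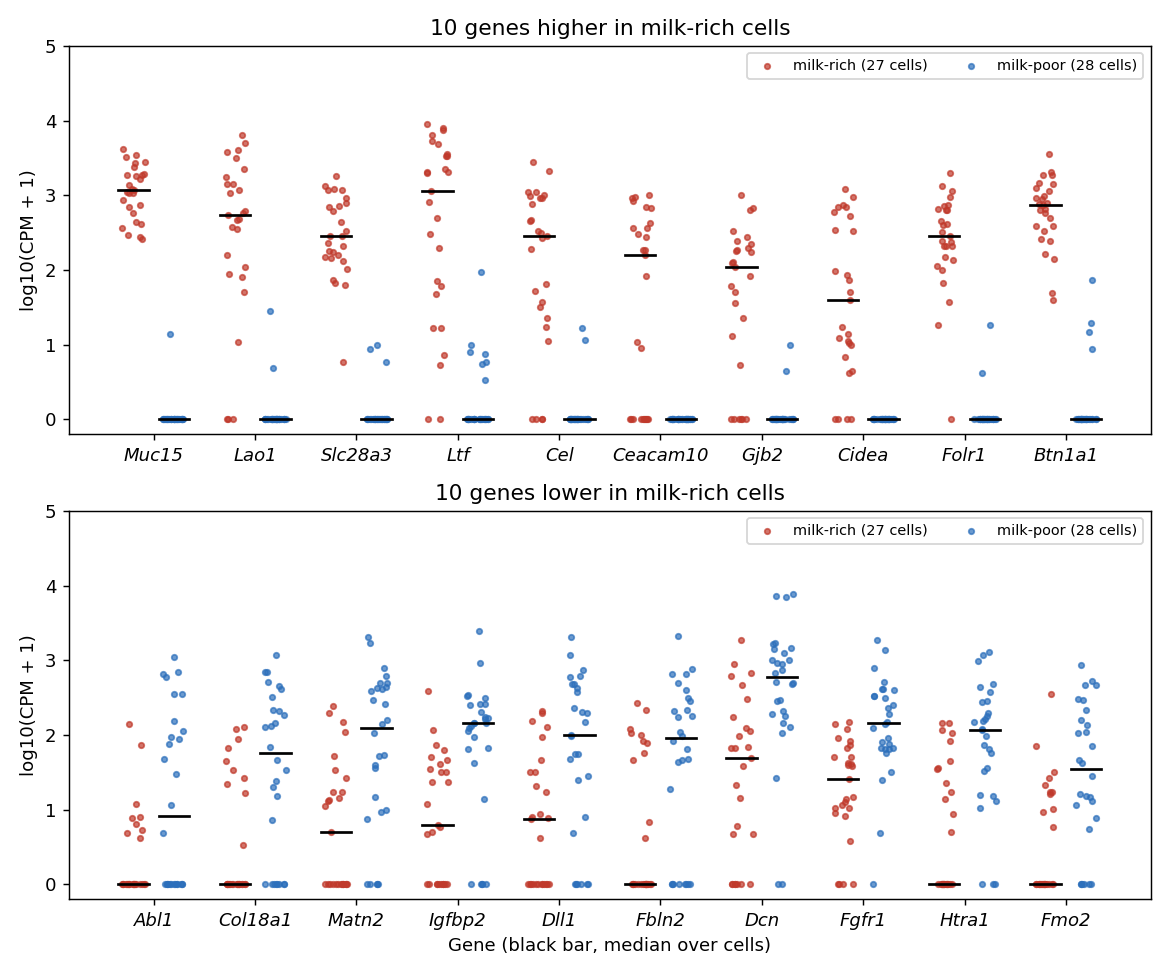
Each point is a cell, at log10(CPM + 1) over reads without milk genes. Shown are the genes with the 10 highest (top) and 10 lowest (bottom) ratios under the naming limits. Red points are the 27 milk-rich and blue points the 28 milk-poor cells, and black bars are medians. Muc15 separates the groups fully, while each gene in the lower panel overlaps between them.

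The alveolar secretory list holds proteins of milk and the milk fat globule beyond the 8 milk genes. Of its 20 genes, 18 were tested, 17 were higher by 2-fold or more and none lower, with a median log2 ratio of 6.41, against 19.5% called higher among all genes. Spp1, the secreted phosphoprotein osteopontin, had 41269 CPM in milk-rich cells (220 to 176226, median 12655) and 160 CPM in milk-poor cells (0 to 2049, median 26.2). Milk-rich cells therefore differed widely among themselves in Spp1, and the groups overlapped. Plin2, the lipid droplet coat protein perilipin 2, had a log2 ratio of 3.59, Xdh, a structural partner of Btn1a1, 4.25, and Fabp3, a fatty acid carrier, 6.65. Mfge8, a milk fat globule protein also made by other cells, had 2126 and 609 CPM over all cells, a log2 ratio of 1.80, but -0.88 within titles 1 to 55 and 2.75 within titles 56 to 123. Summed over the list, milk-rich cells ranged from 12310 to 221176 CPM and milk-poor cells from 221 to 5037 CPM. The 23 milk-carrying cells with under 6 basal markers ranged from 19346 to 174589 CPM.

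Milk fat synthesis genes were divided. Of 24, 21 were tested, 8 were higher (Acaca, Cidea, Fabp3, Lpin1, Me1, Olah, Scd1 and Thrsp), 2 were lower (Acss2 and Dgat2) and the median log2 ratio was 0.62. Over all genes tested, 19.5% were called higher and 26.7% lower. Cell 13 held 76.3% of the milk-poor reads of Acss2, and none of the list was lower without the top cell of each gene or without cells with markers of another type. Scd1, the stearoyl-CoA desaturase, had 2304 CPM in milk-rich cells (0 to 15121, median 1352) and 56.2 CPM in milk-poor cells (0 to 542, median 8.41). Thrsp, a regulator of lipogenesis, had 438 and 5.59 CPM, a log2 ratio of 6.29. The other 11 tested members did not reach 2-fold. Hmgcs1, an early enzyme of the cholesterol pathway, had 374 CPM in milk-rich and 426 CPM in milk-poor cells (log2 ratio -0.19, -0.28 to -0.10). Within each title range the median of the list was higher, 1.04 in titles 1 to 55 and 2.17 in titles 56 to 123.

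Luminal epithelial genes were higher in the milk-rich cells. Of 14 luminal keratin and junction genes, 12 were tested, 9 were higher and Krt7 was lower, with a median log2 ratio of 2.27, against 19.5% higher and 26.7% lower among all genes. Without cells with markers of another type, 9 of 11 were higher and 0 lower. Krt7 had a log2 ratio of -2.33 in titles 1 to 55 and 3.03 in titles 56 to 123. Krt18, a keratin of simple epithelia, had 712 CPM in milk-rich cells (87.0 to 2159, median 665) and 130 CPM in milk-poor cells (0 to 760, median 47.5). Its partner Krt8 had 569 and 212 CPM, and was detected in 26 of 28 thinned milk-poor cells. Krt8 was thus found in nearly all cells of both groups and Krt18 in 13 thinned milk-poor cells. Epcam, an epithelial adhesion molecule, had 1055 and 245 CPM (log2 ratio 2.11), and the tight junction gene Cldn7 had 92.8 and 2.01 CPM (log2 ratio 5.53). Cdh1, E-cadherin, did not reach 2-fold, with 101 and 120 CPM. Summed over the list, milk-rich cells had a median of 3558 CPM and milk-poor cells 681 CPM. Within milk-rich cells the Spearman coefficient of this sum with milk share was -0.30 (n = 27 cells), with 0.51 in titles 1 to 55 and -0.39 in titles 56 to 123, as a description. Milk-rich cells also had more reads and genes, and whether a library held RNA of more than 1 cell was not tested.

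The luminal progenitor list showed the same direction, with 12 of 14 tested genes higher, none lower and a median log2 ratio of 4.00, against 19.5% called higher among all genes. It shares Elf5 with the prolactin list and Folr1 and Slc34a2 with the secretory list. Elf5, an Ets factor required for alveolar differentiation, had 124 CPM in milk-rich cells (0 to 408, median 38.6) and 1.57 CPM in milk-poor cells, where 1 cell, cell 66, held all its reads. Ehf, a related factor, had 376 and 23.7 CPM, and Kit, a receptor kinase of luminal progenitors, had 75.9 and 1.34 CPM. Cd14, a lipopolysaccharide co-receptor, reversed between title ranges, with a log2 ratio of -2.73 in titles 1 to 55 and 9.70 in titles 56 to 123. Cell 13 held 95.8% of its milk-poor reads, and the same cell had the highest summed immune markers. Of the mature luminal list, 6 of 15 genes were tested, 0 were higher and 4 lower, against 19.5% higher and 26.7% lower among all genes. Prlr, Pgr and Tph1 had most of their milk-poor reads in cell 98. Without the top cell of each gene, 4 of the list were tested, 2 higher and 2 lower.

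Genes of the prolactin and STAT5 pathway did not follow the milk genes as a group. Of 16 tested genes, Elf5 was higher and Cav1, Prlr, Socs3 and Stat5b were lower, with a median log2 ratio of -0.26. Over all genes tested, 19.5% were called higher and 26.7% lower. Without the top cell of each gene, 2 of 15 were higher and 1 lower, where 14.3% and 13.9% of all genes were. Stat5a had 60.9 CPM in milk-rich and 87.9 CPM in milk-poor cells, and Jak2 had 70.6 and 46.5 CPM. Neither reached 2-fold. Prlr, the prolactin receptor, had 177 CPM in milk-rich cells (0 to 746, median 99.7) and 478 CPM in milk-poor cells (0 to 4442, median 0). Its reads were found in 20 of 27 thinned milk-rich and in 3 of 28 thinned milk-poor cells. Cell 98 held 88.1% of the milk-poor reads, and without it the log2 ratio was 1.49 in place of -1.44. Without cells over 20% mitochondrial reads it was 2.96. Stat5b also rested largely on 1 cell, cell 2, with 59.7% of its milk-poor reads, and had a log2 ratio of 4.27 in titles 56 to 123. Socs3, a feedback inhibitor of cytokine receptors, had 7.61 and 42.7 CPM.

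Contractile genes outside the rule were lower in milk-rich cells. Of 20 further contractile genes, 15 were tested, 9 were lower and none higher, with a median log2 ratio of -1.53, against 26.7% called lower among all genes. Tpm1, a tropomyosin, had 487 CPM in milk-rich cells (7.33 to 2256, median 422) and 1734 CPM in milk-poor cells (339 to 5417, median 1705). Actg2, enteric smooth muscle actin, had 181 and 604 CPM. Oxtr, the oxytocin receptor through which milk ejection is triggered, had 139 CPM in milk-rich cells (median 28.5) and 413 CPM in milk-poor cells (median 312), with reads in 14 of 27 and 24 of 28 thinned cells. The ranges of the groups overlapped for each of these genes. Vcl, Actn1 and Cald1, which are also used at adhesions of many cells, had log2 ratios of -0.93, -0.85 and -0.81. Summed over the list, milk-rich cells had a median of 3984 CPM, milk-poor cells 8775 CPM, intermediate cells 13851 CPM and the other milk-carrying cells 934 CPM.

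**Figure D3:**
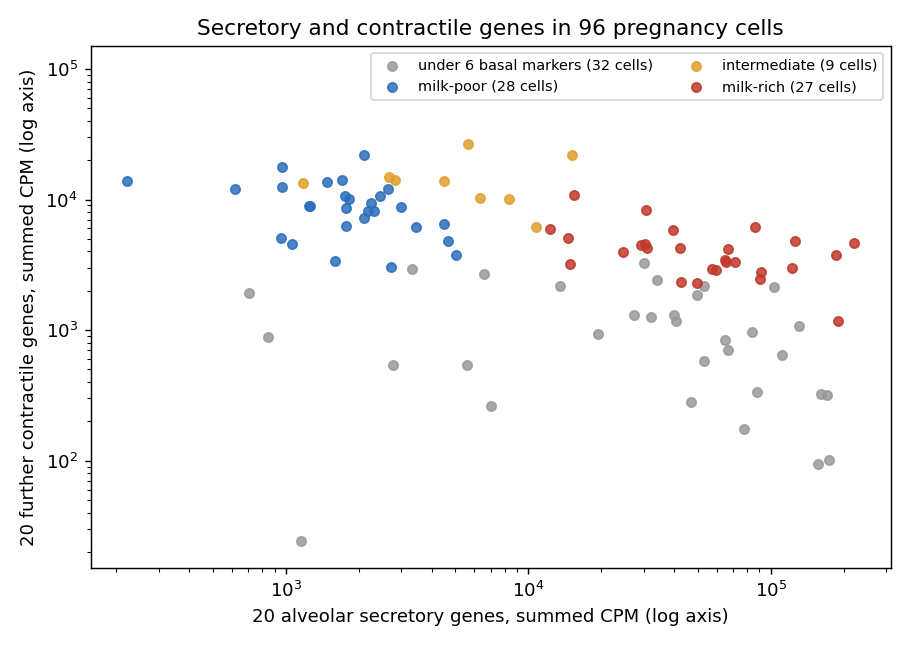
Each point is a pregnancy cell with at least 50000 reads. The horizontal axis gives the summed CPM of the alveolar secretory list and the vertical axis that of the further contractile list, both on log axes and over reads without milk genes. Milk-rich cells (red) lie to the right of all milk-poor cells (blue) and mostly above the cells with under 6 basal markers (grey).

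Matrix and integrin genes were also lower. Of 24, 22 were tested, 15 were lower and none higher, with a median log2 ratio of -1.61, against 26.7% called lower among all genes. Col4a1, the basement membrane collagen, had 425 CPM in milk-rich cells (18.3 to 2451, median 269) and 1375 CPM in milk-poor cells (311 to 6461, median 1410). Sparc, a collagen-binding matrix protein, had 613 and 2677 CPM (log2 ratio -2.13), and Lama1, a laminin chain, had 49.9 and 223 CPM. Some members did not reach 2-fold. Itga6, a laminin receptor subunit used to sort mammary cells, had 800 and 1084 CPM (log2 ratio -0.44), and Itgb1 had 761 and 852 CPM (log2 ratio -0.16).

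Among basal transcription factors, 6 of 11 tested were lower and none higher, with a median log2 ratio of -1.22, against 26.7% called lower among all genes. Id4, an inhibitor of helix-loop-helix factors, had 5.48 CPM in milk-rich and 85.7 CPM in milk-poor cells (log2 ratio -3.97, -4.50 to -3.47). Snai2, a zinc finger transcription factor of basal cells, had 55.4 and 230 CPM. Trp63, which is required for basal epithelia, had 85.2 and 198 CPM, but a single milk-rich cell, cell 82, held 80.4% of the milk-rich reads. It was detected in 5 of 27 thinned milk-rich and 15 of 28 thinned milk-poor cells, and its log2 ratio was -4.38 in titles 1 to 55 and 0.30 in titles 56 to 123. Sox9, which is active in both lineages, had 910 and 739 CPM (log2 ratio 0.30).

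Of the Notch, Wnt and growth factor list, 6 of 10 tested genes were lower and none higher (median log2 ratio -1.15), against 26.7% called lower among all genes. Without the top cell of each gene, 3 of 10 were lower, where 13.9% of all genes were. Dll1, a Notch ligand, had 34.5 CPM in milk-rich cells (0 to 206, median 6.45) and 268 CPM in milk-poor cells (0 to 2027, median 97.7). Wif1, a secreted Wnt inhibitor, had 88.2 and 538 CPM, and Nrg1, a ligand of ErbB receptors on luminal cells, had 590 and 1649 CPM. For Nrg1, cell 42 held 36.1% of the milk-rich reads.

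**Figure D4:**
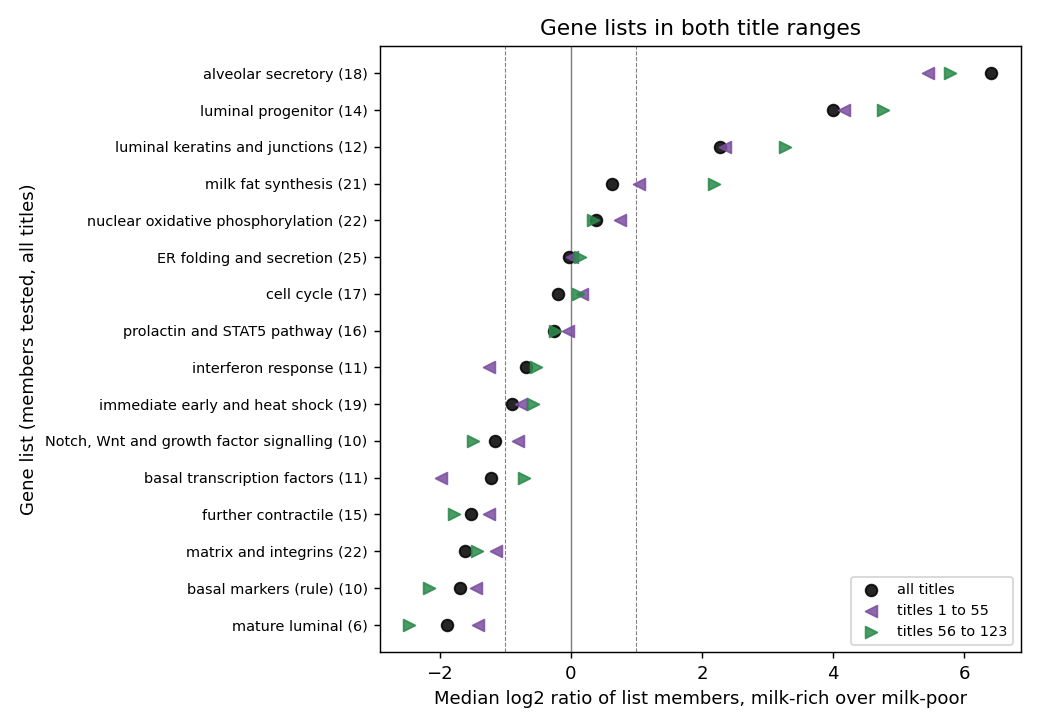
Each marker is the median log2 ratio (milk-rich over milk-poor) of the tested members of a gene list, with genes at 0 in a group set at their bound. Black circles use all cells, purple triangles titles 1 to 55 and green triangles titles 56 to 123, and dashed lines mark 2-fold. The lists with fewer than 6 tested members and the immune and fibroblast lists are not drawn. The alveolar secretory median is 6.41 over all cells, and the contractile, matrix and basal marker medians are below -1 in either range.

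The immediate early and heat shock list holds genes that respond to stimulation, stress and tissue dissociation. Of 19 tested, 9 were lower and none higher, with a median log2 ratio of -0.90, against 26.7% called lower among all genes. The number lower was 4 without the top cell of each gene and 5 with TMM factors, another scaling of library totals, where 13.9% and 22.7% of all genes were. Within titles 1 to 55, 6 of 19 were lower and none higher, against 26.5% lower among all genes. Within titles 56 to 123, 5 of 20 were lower and 1 higher, against 31.6% lower among all genes. The list was thus nearer the share of all genes within each range than over all cells. Fos had 1325 CPM in milk-rich cells (11.0 to 4008, median 1329) and 3783 CPM in milk-poor cells (84.9 to 15960, median 2945). Egr1 had a log2 ratio of -1.34, while Atf3 and Klf6 had ratios of 0.00 and 0.09. Of 11 interferon response genes tested, 4 were lower and Psmb8, an immunoproteasome subunit, was higher, against 26.7% lower and 19.5% higher among all genes. Without cells with markers of another type, 6 were tested, 1 was lower and 2 higher. Ifitm3, an antiviral membrane protein, had 677 CPM in milk-rich cells (25.8 to 1862, median 565) and 1653 CPM in milk-poor cells (145 to 5415, median 1770).

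Most genes of the secretory pathway and of respiration did not reach 2-fold. Of 25 tested endoplasmic reticulum genes, Xbp1, Sec61b, Ssr2 and Ssr4 were higher and Herpud1 was lower, and the median log2 ratio was -0.03. Over all genes tested, 19.5% were called higher and 26.7% lower. Xbp1, a transcription factor of secretory cells, had 382 CPM in milk-rich cells (0 to 1366, median 239) and 78.1 CPM in milk-poor cells (0 to 1782, median 5.55). The chaperone Hspa5 had 1718 and 1757 CPM. Of 22 nuclear oxidative phosphorylation genes, 3 were higher (Atp5g1, Ndufb9 and Uqcrb) and none lower, against the same 19.5% and 26.7% over all genes. The median log2 ratio of this list was 0.39, against -0.17 over all genes tested. It was 0.74 in titles 1 to 55 and 0.34 in titles 56 to 123, where the medians over all genes were 0.01 and -0.14.

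Cell cycle genes differed between the title ranges more than between the groups. Of 17 tested, Mcm3 and Mcm4, subunits of the replicative helicase, were higher, 4 were lower and the median log2 ratio was -0.20. The shares over all genes tested were 19.5% higher and 26.7% lower. Within titles 1 to 55, 4 of 19 were higher and 1 lower (median log2 ratio 0.17), against 24.9% and 26.5% of all genes. Within titles 56 to 123, 8 of 17 were higher and 4 lower (median log2 ratio 0.10), against 30.2% and 31.6% of all genes. Without the top cell of each gene, 1 of 17 was higher and none lower, where 14.3% and 13.9% of all genes were. Mcm3 had a log2 ratio of -0.18 in titles 1 to 55. Mki67, a proliferation marker, had 213 CPM in milk-rich and 246 CPM in milk-poor cells, with a log2 ratio of 0.11 in titles 1 to 55 and 1.43 in titles 56 to 123. Reads in 5 or more of 20 cell cycle genes, a limit chosen after the values were seen, were found in 9 of 11 milk-rich and 9 of 19 milk-poor cells of titles 1 to 55. In titles 56 to 123 they were found in 2 of 16 and 1 of 9 cells. Cells with cell cycle genes were therefore present in both groups and were mostly of the lower title range. The difference between the ranges was not tested.

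**Figure D5:**
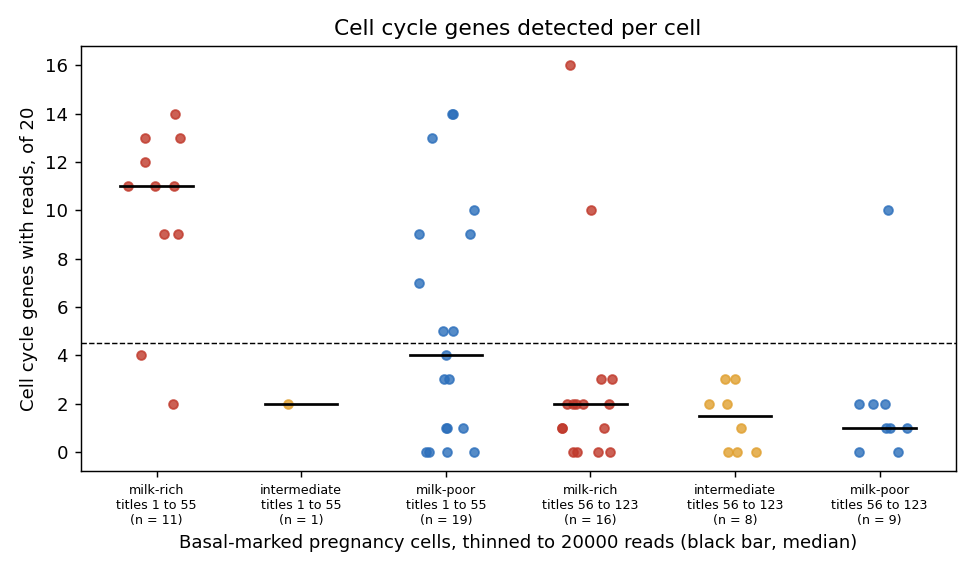
Each point is a basal-marked cell thinned to 20000 reads, and the vertical axis counts how many of 20 cell cycle genes had reads. Columns give milk class and title range, black bars are medians, and the dashed line separates 5 or more genes from fewer. The median was 11 genes in milk-rich cells of titles 1 to 55 and 2 genes in those of titles 56 to 123.

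Immune and fibroblast markers were lower in milk-rich cells, against 26.7% called lower among all genes. Most of these markers rested on few cells, with Dcn, found in 25 of 28 thinned milk-poor cells, as an exception. All 6 immune genes (Ptprc, Cd74, Cd52, Tyrobp, Laptm5 and Lyz2) were tested and lower, and Ptprc, Cd52, Tyrobp and Laptm5 had no read in milk-rich cells. Their summed level ran from 0 to 74.9 CPM in milk-rich and from 0 to 13508 CPM in milk-poor cells, with a median of 0 in both. All 6 fibroblast genes were lower too, Pdgfra was at 0 in milk-rich cells, and the summed level ran from 0 to 1870 CPM with a median of 48.2 CPM in milk-rich cells and from 0 to 24176 CPM with a median of 719 CPM in milk-poor cells. Cell 13 held 88.7% of the milk-poor reads of Tyrobp, an adaptor of myeloid receptors, and cell 52 held 55.1% of those of Col1a2, a fibrillar collagen. Of the endothelial list, 3 of 5 genes were tested, with Pecam1 and Kdr higher (log2 ratios 1.10 and 1.69) and Emcn lower, and of the pericyte list 2 of 5 were tested and lower. No adipocyte or erythroid gene reached 20 CPM. Without the cells named above, no immune or pericyte gene remained at 20 CPM, and the fibroblast list kept Dcn alone, at -2.32. Of the endothelial list 1 gene remained, at -7.18, and the log2 ratios of Pecam1 and Kdr were -0.10 and -1.61. Without those cells the secretory median was 6.21, the contractile median -1.67 and the matrix median -1.74.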

How the data were processed

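Single-cell RNA-seq counts of 278 cells (Fluidigm C1, Nextera XT, NextSeq 500) were used. According to the study's methods and the submitters' processing notes, the authors mapped read pairs to mm10 with Subread 1.4.6 and assigned them with featureCounts to RefSeq genes. The deposited counts are raw whole numbers of read pairs for each Entrez gene, made without molecular identifiers, and the gene length beside them was used only to scale milk genes. A combined table with identical counts for all cells was left aside. PCR copies are counted, so intervals cover counting error only.

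Symbols and coordinates came from the RefSeq table of GRCm38.p6, the same build as mm10, which gave a symbol for 25275 of 27179 IDs. The 1904 IDs without one, 15 mitochondrial genes and 124 ribosomal genes were removed. Reads stand for read pairs in the kept genes. Cells were taken from the labels and then by the rule on reads, markers and milk share. Members and lists were chosen with earlier results of these data known.

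Counts were summed over cells and divided by totals without milk genes. A ratio has an exact conditional interval, a share a Clopper-Pearson interval. Where a sum was 0, a floor of 3 reads over the group was used and the ratio is a bound, also within list medians. Detection used cells thinned to 20000 reads, and no cell had fewer outside the milk genes. No doublet caller was run. Lists are described by the number of members past 2-fold and their median beside all genes tested. Genes were named as the 10 highest and 10 lowest ratios with at least 100 CPM in the higher group, detection in 50% or more of that group's thinned cells, at most 50% of its reads in 1 cell and the same direction in titles 56 to 123. Up to 6 genes a list with the highest CPM, and those past 4-fold, could be named too, and the others named were chosen after their values were seen. Alternatives covered title ranges, weighting, TMM factors (edgeR 4.0.16), filters, thresholds and depth. Exclusion of cells with markers of another type or over 20% mitochondrial reads was added after seeing the data. Ratios and intervals were tested on simulated reads, drawn from the same profile for every cell of a group. That simulation held no differences between cells and no PCR copies, so it checks the intervals for counting error only. Scripts used Python 3.11.15 and R 4.3.3.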

Additional observations from a re-analysis of the deposited data

How the results depend on the processing

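No paired analysis was possible because each sample is labelled as 1 cell, the numbers in the titles only name cells, and the results come from no test. The number of milk-rich cells and of milk-poor cells stayed within 1.5 times under every alternative rule tried. The number of genes called higher and lower was 699 and 3152 with milk reads in the totals, where the share of calls that were higher was 18.2% against 42.2%. It was 853 and 828 without the top cell of each gene, 2898 and 3445 among genes at 1 CPM or more in 3 or more cells, and 361 and 563 at 100 CPM or more. The shares called higher and lower were 14.3% and 13.9% without the top cell, which was removed from the higher group only. They were 23.8% and 28.2% among genes at 1 CPM or more in 3 or more cells, and 14.0% and 21.9% at 100 CPM or more. The causes of these differences were not tested. TMM factors moved every log2 ratio by 0.17 and gave 1715 and 1702 genes. Median genes per cell without thinning were 5138 in milk-rich and 3714 in milk-poor cells, and 2422 in milk-rich cells at 10000 reads.

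Medians of lists with 3 or more tested members crossed 2-fold as follows, and the cause was not tested. In titles 56 to 123, milk fat synthesis was at 2.17 and basal transcription factors at -0.72. In titles 1 to 55, milk fat synthesis was at 1.04, Notch, Wnt and growth factor signalling at -0.81 and interferon response at -1.26. Without the top cell, mature luminal was at -0.18 and the Notch list at -0.89, which TMM factors put at -0.98. With equal weight for cells, mature luminal was at -0.88 and endothelial at 0.85. With 8 or more markers, basal transcription factors were at -0.91 and endothelial at 0.86. Thinning put endothelial at 0.47. With milk reads in the totals, immediate early genes were at -1.48 and interferon response at -1.27. At 100 CPM or more, milk fat synthesis was at 3.38 and immediate early genes at -1.01. Interferon response was at -1.25 with thresholds of 10% and 0.5%, at -1.13 among genes at 1 CPM or more, and at -1.03 without cells over 20% mitochondrial reads, where endothelial was at 0.74. With 1 or 2 endothelial genes tested, its median turned to -2.84 in titles 56 to 123, -0.63 with milk reads in the totals, -4.29 with thresholds of 10% and 0.5% and -7.18 without cells with markers of another type, and was 0.73 without the top cell.

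Of 159 genes named by rule, these turned direction with a ratio of 2-fold or more on either side. Within titles 1 to 55, Cd14 was at -2.73, Emcn at 5.85, Mfge8 at -0.88, Pgr at 0.57 and Prlr at 0.43. Within titles 56 to 123, Cd74 was at 1.21, Dpt at 2.90, Esr1 at 5.16, Kdr at -0.00407, Ly6a at 1.25, Mki67 at 1.43, Pdgfrb at 1.87, Pecam1 at -0.48, Rrm2 at 5.57, Rsad2 at 4.85 and Trp63 at 0.30. Without the top cell, Cd74 was at 0.52, Emcn at 1.23, Ly6a at 1.16, Prlr at 1.49 and Rsad2 at 1.05. Without cells with markers of another type, Cd74 was at 0.000602, Dpt at 3.43, Kdr at -1.61, Ly6a at 1.85, Pdgfrb at 0.94, Pecam1 at -0.10 and Rsad2 at 1.57. Pecam1 was at -0.0383 with thresholds of 10% and 0.5%, and Prlr at 2.96 without cells over 20% mitochondrial reads. Outside the rule, Krt7 was at 3.03 and Stat5b at 4.27 in titles 56 to 123, and Mcm3 at -0.18 in titles 1 to 55.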

Other observations

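The 9 intermediate cells had milk shares of 1.17 to 4.78% and are in neither group. Their summed basal markers had a median of 49443 CPM, against 27137 CPM in milk-poor and 9881 CPM in milk-rich cells. Myh11, smooth muscle myosin, had 3933 CPM in intermediate, 3338 CPM in milk-poor and 942 CPM in milk-rich cells. Summed alveolar secretory genes had a median of 5636 CPM in intermediate, 1801 CPM in milk-poor and 57477 CPM in milk-rich cells. Muc15 had 207 CPM in intermediate cells, while Folr1 had 0.853 CPM and Ceacam10 no read. Mitochondrial genes took a median of 23.2% of reads in the intermediate cells, with 5 of 9 above 20%, and 8 of the 9 were of titles 56 to 123. No cell of this class had reads in 5 or more of the 20 cell cycle genes.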
